A study of Sus scrofa with 45 samples.

Results

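Whole blood of pigs that had eaten the HFCSD diet for 19 weeks was compared with whole blood of control pigs taken at the same point of the feeding. The arrays were picked by the tissue, diet and feeding period in their titles, which gave 3 HFCSD and 4 control arrays, 7 of the 45 arrays in the series. All animals were male Clawn miniature pigs kept free of specific pathogens and 12 weeks old when feeding began, with 5 pigs on each of 3 diets. Controls ate a standard dry feed, HFCD pigs a feed with 15% lard and 2% cholesterol, and HFCSD pigs the same with 37% sucrose added. Whole blood was sampled after 10, 19 and 27 weeks and white blood cells after 27 weeks, and each RNA was hybridised to a porcine 1-colour array. The HFCSD diet differs from the control feed in fat, cholesterol and sucrose together, so the contrast does not separate the ingredients. The titles number the replicates without linking them to pigs, and only part of the 5 pigs of each diet is on an array at this feeding period.

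Cells that take up more cholesterol than they can use turn part of it into oxysterols, which activate the liver X receptors, and these nuclear receptors switch on ABCA1, the pump that loads cholesterol onto apolipoprotein particles. The SREBP transcription factors do the reverse work: they turn on sterol synthesis and LDL uptake when a cell runs short of sterol. Blood adds an immune side, since interferons make white cells transcribe antiviral genes such as ISG15 and the MX genes and chemokines such as CXCL10, which attracts T cells.

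The labelled tissue was checked against marker genes of blood cells and of other tissues. A probe was taken as measured on an array where the scanner software marked it well above the local background. Among the blood lists, 8 of 9 platelet markers on the array were measured on all 7 arrays, as were 7 of 9 T cell markers, 7 of 11 monocyte markers, 5 of 8 neutrophil markers and 4 of 7 erythroid markers. The alpha globin probe HBA was measured on 1 HFCSD array and no control array, while HBE1, a beta-like globin gene, was measured on all 7 arrays. CD4, the helper T cell co-receptor, was measured on 1 control and 1 HFCSD array. Of the liver markers 1 of 13 was measured on all 7 arrays and 8 on none, albumin (ALB) among them, and for skeletal muscle the counts were 4 of 15 and 5. Fat tissue markers gave 3 of 10 on all arrays and 4 on none. The smooth muscle and vessel wall list was measured more widely, 8 of 12 on all arrays, and holds genes that platelets and white cells also transcribe.

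Control arrays 1 to 4 had 42.01%, 41.7%, 43.9% and 51.0% of their spots well above background, and HFCSD arrays 1 to 3 had 42.05%, 48.4% and 38.04%. The ranges overlap, with means of 44.6% and 42.8% (SD 4.37 and 5.22, two-sided exact permutation test, p = 0.657, smallest possible 0.0286). The median probe varied between control arrays with an SD of 0.378 on the log2 scale and between HFCSD arrays with an SD of 0.335. Control 1 had the lowest mean correlation with the arrays of its own diet among the 7, at 0.932, and the other 6 lay between 0.955 and 0.964. The scan day recorded in the file headers divides the groups. Control 1 was scanned on the same day as all 3 HFCSD arrays and controls 2 to 4 on another day. Diet and scan day therefore cannot be told apart in 3 of the 4 control arrays, and the value with scan day as a block (the day block), which rests on control 1 alone and equals the difference within the shared day, is given for list medians and for each gene difference that it moved by over 1.5 times. Where control 1 or all HFCSD arrays did not measure the gene well above background, a bound within the shared day takes its place. No slide held both HFCSD and control arrays. A value with slide as a block (the slide block) can be had only through HFCD arrays. HFCD 1, 3 and 4 shared 3 slides with the HFCSD arrays, and HFCD 2 shared 1 slide with control 1. The slide block therefore rests on control 1 and HFCD 2 alone for that step, and takes in differences between HFCD arrays. Of these, HFCD 1 had a mean correlation with its group of 0.852, the others 0.920 to 0.931.

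ABCA1 and an unnamed pig cDNA rose in blood of HFCSD pigs, and WNT10B, which encodes a secreted signalling protein of the WNT family, fell. These were the only probes past the adjusted threshold of 0.05 in the limma fit of 17177 probes: 2 higher (0.0116% of those tested) and 1 lower (0.00582%). Control arrays 1 to 4 read 9.14, 9.94, 9.94 and 9.54 for ABCA1 on the log2 intensity scale, and HFCSD arrays 1 to 3 read 12.08, 11.90 and 12.03. Every HFCSD array lay above every control array, and the HFCSD arrays were close to each other. The difference between means was 2.36 on the log2 scale (SE 0.27, n = 3 and 4), a 5.14-fold higher level with an adjusted p of 0.0234, 2.86 with the day block (adjusted p 0.0487) and 2.48 with the slide block (adjusted p 1).

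The unnamed probe, A_72_P202657, read 4.56, 5.13, 5.64 and 4.80 on control arrays 1 to 4 and 8.11, 8.18 and 7.82 on HFCSD arrays 1 to 3. The groups were far apart, and each of the 7 arrays measured the probe above background. Its log2 difference of 3.00 (SE 0.35) is an 8.02-fold higher level with an adjusted p of 0.0234. The difference was 3.47 with the day block (adjusted p 0.0849) and 3.67 with the slide block (adjusted p 1), so the call was lost with both. For WNT10B the control arrays read 6.79, 7.14, 7.53 and 7.72 and the HFCSD arrays 4.86, 5.41 and 5.27. All HFCSD arrays lay below all control arrays, with control 1, the array of the shared scan day, the lowest control. WNT10B fell by a log2 difference of -2.12 (SE 0.27), 4.33-fold, with an adjusted p of 0.0395, and had a difference of -1.61 with the day block (adjusted p 0.374) and -1.23 with the slide block (adjusted p 1).

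The probe sequences behind these calls are shown because the unnamed probe has no other identity in the files, and because a difference read from 1 probe is a statement about that stretch of transcript. Each is 60 bases long, 5′ to 3′, in lower case as a whole since no part is singled out, and their genome positions are unmapped because no pig genome came with the files.
ABCA1, probe A_72_P079266: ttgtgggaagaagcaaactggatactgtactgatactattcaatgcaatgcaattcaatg
WNT10B, probe A_72_P016651: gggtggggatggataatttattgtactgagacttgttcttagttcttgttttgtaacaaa
unnamed cDNA, probe A_72_P202657: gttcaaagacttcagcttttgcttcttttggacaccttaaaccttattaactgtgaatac

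**Figure D1:**
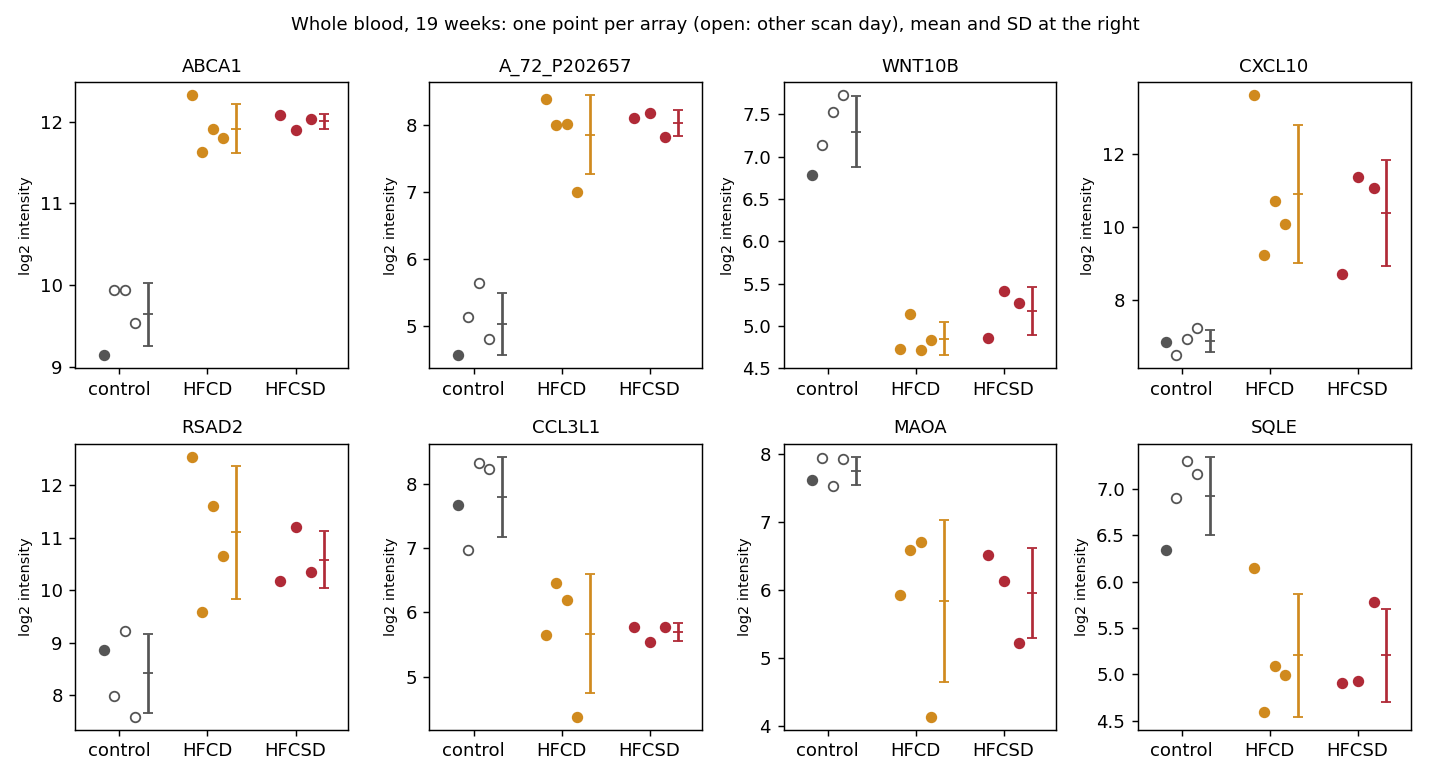
Log2 intensity on each whole blood array after 19 weeks, 1 point per array, open where the scan day was the other one, with the group mean and 1 SD at the right of each diet. For ABCA1 the HFCSD arrays sit between 11.90 and 12.08, above control arrays between 9.14 and 9.94, and for WNT10B they sit below.

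The 3 calls rest on few arrays. Over the alternatives other than leaving out an array, A_72_P202657 ran from 1.62 to 3.67, WNT10B from -2.12 to -1.17 and ABCA1 from 2.26 to 2.86. Such ranges mix scales. With normexp background correction the quartiles of all probes were -0.22 and 0.24, against -0.34 and 0.38 in the main fit. Without control 1 or without control 3, 2 of the 3 probes passed and no other did. Without control 2, control 4, HFCSD 1 or HFCSD 2 the limma count was 0, and without HFCSD 3 it was 3, none of them among these probes. At an unadjusted p under 0.05 the same fit gave 1328 probes higher (7.73%) and 713 lower (4.15%). The HFCSD and control arrays did not overlap for 1845 probes with HFCSD above (10.7%) and 1293 with HFCSD below (7.53%). Both criteria together were met by 998 higher (5.81%) and 505 lower (2.94%) probes. A fit of only the 2 groups compared gave 1768 higher and 1454 lower at an unadjusted p under 0.05. That fit called 4 probes, 2 of them among the 3 named above. The methods' t-test with a fold above 2 or below 0.5 and an unadjusted p under 0.05 gave 437 probes higher (2.54%) and 449 lower (2.61%), and 0 after Benjamini-Hochberg. With the day block 3 probes were higher (0.0175%) and 0 lower in limma, 1605 at an unadjusted p under 0.05 (9.34%; 818 higher, 787 lower), and 1 of the 3 was a probe named above, ABCA1. Control 1 alone against the HFCSD arrays of its day gave 7 higher (0.0372%) and 66 lower (0.35%) of 18838 probes, 1443 at an unadjusted p under 0.05 (7.66%; 525 higher, 918 lower), so the balance of higher and lower was not kept. With the slide block limma gave 0, and 396 at an unadjusted p under 0.05 (257 higher, 139 lower). Of the 77 genes and probes given in this report, 21 had a difference that moved by over 1.5 times with some array left out, 43 one that did so or changed sign with the day block and 58 with the slide block, dim signals being taken as read. Other scalings, background correction and filters are outside this tally. The median of all probes was 0.04 on the log2 scale, 0.23 with the day block and 0.06 with the slide block. Positive differences made up 52.8%, 63.9% and 54.7% of probes. The list medians and counts of positive differences below are to be read against these. List counts at the unadjusted limit are to be read against 7.73% of all probes higher and 4.15% lower. Those without overlap are to be read against 10.7% above and 7.53% below.

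The study tabulated 22 genes by symbol across its comparisons, among them 7 for this diet and period: ABCA1 and WNT10B, given above, and the 5 described next. It chose them on arrays of this series, so their counts are no independent evidence. Of the 22 genes 19 were tested here: ABCA1 rose, WNT10B fell and 17 did not pass, with 5 genes whose HFCSD arrays all lay above the controls and 4 below. The list median was 0.05, against -0.35 with the day block and -0.29 with the slide block. CXCL10, the T cell attracting chemokine, read 6.84, 6.49, 6.93 and 7.23 on control arrays and 8.72, 11.36 and 11.07 on HFCSD arrays. The HFCSD arrays were all higher but spread widely, HFCSD 1 being the lowest of them. Its log2 difference was 3.51 (SE 0.90, adjusted p 0.249), 3.54 with the day block and 1.32 with the slide block, and its other probe was higher too. RSAD2, an antiviral enzyme induced by interferon, read 8.86, 7.98, 9.23 and 7.60 on control arrays and 10.18, 11.20 and 10.35 on HFCSD arrays. No control array reached the HFCSD arrays, and the log2 difference was 2.16 (SE 0.63, adjusted p 0.275), 1.72 with the day block and of the other sign with the slide block, at -0.29.

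On the other side, CCL3L1, a chemokine that draws monocytes and other white cells, read 7.67, 6.96, 8.32 and 8.23 on control arrays and 5.77, 5.53 and 5.77 on HFCSD arrays. The HFCSD arrays were lower throughout and nearly equal, with a log2 difference of -2.10 (SE 0.48, adjusted p 0.219), -1.98 with the day block and -0.93 with the slide block. MAOA, a mitochondrial enzyme that breaks down amine transmitters, read 7.62, 7.94, 7.54 and 7.92 against 6.51, 6.13 and 5.21, and SQLE, an enzyme of cholesterol synthesis, read 6.33, 6.89, 7.29 and 7.16 against 4.90, 4.93 and 5.78. Both had every HFCSD array below every control array. Their log2 differences were -1.80 for MAOA (SE 0.55, adjusted p 0.288) and -1.71 for SQLE (SE 0.39, adjusted p 0.219), -1.67 and -1.13 with the day block and -0.67 and -1.94 with the slide block.

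Genes of cholesterol handling had differences in both directions, and of these only that of ABCA1 passed. Of 16 liver X receptor targets and efflux genes 9 were on the array and 5 tested: ABCA1 rose and 4 did not pass. NR1H3, which encodes a liver X receptor itself, had a log2 difference of 0.43 (1.26 with the day block, 1.84 with the slide block), PLTP, the phospholipid transfer protein, 0.41, and SREBF1, the lipid synthesis regulator that is also a liver X receptor target, -1.29 (-0.53 with the day block). The list median was 0.41, with 1.20 under the day block, where PLTP took the other sign at -0.94, and 0.82 under the slide block, where SREBF1 did, at 0.82. With an array left out NR1H3 ran from 0.027 to 0.79 and PLTP from 0.17 to 0.86. Of 4 tested genes of sterol synthesis 0 passed, and 2, SQLE among them, were lower at an unadjusted p under 0.05. Their median was -0.28, -0.30 with the day block and -0.84 with the slide block. Among 5 tested genes of sterol sensing and LDL uptake none passed. SREBF2, the main activator of sterol synthesis genes, had a log2 difference of -1.20, SCARB1, the HDL receptor, -0.83 and NPC2, a lysosomal cholesterol carrier, -0.37 (-0.57 to -0.13 with an array left out, -0.24 with the slide block). Both SREBF2 and SCARB1 had all HFCSD arrays below all control arrays, and the list median was -0.37. With the day block the median was -0.27, SREBF2 -0.61 and SCARB1 -0.51. With the slide block the median was 0.27, SREBF2 0.64 and SCARB1 0.27, all of the other sign. HFCD 1, which enters that block, read 8.95 for SREBF2, against 11.81 to 12.45 on the other HFCD arrays.

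Interferon-induced effector genes had mostly positive differences, 8 of 10, without passing the adjusted test, and their median turned negative with the slide block. Of 30 genes 12 were on the array and 10 tested, and 0 passed in limma. At an unadjusted p under 0.05, 4 were higher (all probes 7.73%) and 0 lower (all probes 4.15%). For 3 genes the groups had no overlap, with HFCSD above (all probes 10.7%). The ubiquitin-like protein ISG15, the brightest of the list over the 7 arrays, read 14.35, 13.50, 14.44 and 12.75 on control arrays and 15.30, 15.38 and 15.07 on HFCSD arrays. All HFCSD arrays were above all control arrays, with a log2 difference of 1.49 (SE 0.39, adjusted p 0.255) that was 0.90 with the day block and 0.23 with the slide block. The antiviral GTPases MX2 and MX1 had log2 differences of 1.57 and 0.91, 0.79 and 1.28 with the day block. The list median was 0.74 (all probes 0.04), 0.50 with the day block (all probes 0.23) and -0.40 with the slide block (all probes 0.06), where MX2 was at -1.08 and MX1 at 0.34. Of the RNA sensors and signalling genes upstream 15 of 27 were tested, 0 passed, and 0 higher and 1 lower met the unadjusted limit. The kinase JAK2 had a log2 difference of 1.27, the sensors DDX58 and IFIH1 0.94 and 0.75, and the interferon gamma receptor chain IFNGR2 -1.01 (-0.51 with the day block, -0.20 with the slide block), with a list median of 0.27 (0.27 with the day block, -0.16 with the slide block). DDX58 took the other sign with both blocks, at -0.42 and -1.30, and IFIH1 with the slide block, at -0.91. IFIH1 was at 0.27 with the day block, and DDX58 ran from 0.49 to 1.39 with an array left out.

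Chemokines and cytokines had differences in both directions. Of 27 chemokine and receptor genes 13 were tested, 0 passed, and 1 higher and 2 lower met the unadjusted limit, CXCL10 on one side and CCL3L1 and the receptor CCR1 (log2 difference -0.77, -0.15 with the slide block) on the other. CCL8, a monocyte chemokine, entered the fit through the HFCSD arrays alone. It was well above background on 2 of 4 control arrays, control 1 not among them. With the dim signals taken as read its difference was 1.64 (0.84 to 2.30 with an array left out), which is no exact value. Against control 1 alone, within the shared day, CCL8 was at least 3.35-fold higher. The median of the chemokine list was 0.20, 0.21 with the day block and -0.14 with the slide block. Of 35 cytokine and receptor genes 14 were tested and 9 of the 29 on the array were not well above background on any array. None passed, 2 were higher and 2 lower at the unadjusted limit, and the median was -0.25 (-0.25 with the day block, -0.17 with the slide block). TNFSF10, a death ligand also called TRAIL, had a log2 difference of 1.42, the interleukin 1 family cytokines IL18 and IL1A -1.82 and -1.05, and the receptor IL6R -0.97. IL6R was measured on 2 of 3 HFCSD arrays. With the day block TNFSF10 was at 0.40, IL1A at -1.95 and IL6R at -0.29. Over the alternatives other than leaving out an array IL1A ran from -1.95 to -0.41. With the slide block TNFSF10 was at -0.96 and IL6R at 1.21.

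The largest differences among receptors for microbial products were negative, though those of CD14 and TLR2 were not with the slide block. Of 21 Toll-like receptor pathway genes 12 were tested and 0 passed. At the unadjusted limit 0 were higher and 1 lower (all probes 7.73% and 4.15%). For 3 genes all HFCSD arrays lay below all control arrays (all probes 7.53%). CD14, the co-receptor for lipopolysaccharide on monocytes, read 10.14, 10.42, 10.69 and 9.92 on control arrays and 9.68, 9.28 and 7.03 on HFCSD arrays. HFCSD 3 was far below the rest of these. HFCD 1, on the same slide as HFCSD 3, read 7.17, and the other HFCD arrays read 10.09, 9.88 and 8.75. A part of the slide was not tested. The log2 difference between HFCSD and control was -1.63 (SE 0.73, adjusted p 0.416), -1.48 with the day block and 0.0025 with the slide block. It ran from -2.14 to -0.82 with an array left out, nearest 0 without HFCSD 3. TLR2 and TLR4 had differences of -0.81 and -0.77, and TLR10, found mainly in B cells, 0.72, and TLR2 was at 0.54 with the slide block. With an array left out TLR2 ran from -1.04 to -0.41 and TLR10 from 0.46 to 0.95. The list median of -0.22 was -0.012 with the day block and 0.052 with the slide block. Of 18 complement and galectin genes 6 were tested and 0 passed. LGALS9 was on the higher side at 1.33 (0.80 with the day block) and LGALS3, abundant in macrophages, on the lower side at -1.29 (-0.60 with the slide block), both without overlap between the groups, and the list median was 0.083 (0.15 with the day block, -0.19 with the slide block, where LGALS9 was at -0.22).

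Genes that prepare and load peptides for MHC class I had mostly positive differences, 9 of 12, again short of the adjusted threshold. All 12 list members on the array were tested: 0 passed in limma, 3 were higher at the unadjusted limit (all probes 7.73%) and 0 lower. These 3 were PSME2 and PSME1, the subunits of the proteasome activator induced by interferon gamma, at 0.90 and 0.69, and the immunoproteasome subunit PSMB10 at 0.63 (0.41 to 0.81 with an array left out). None of the 3 had overlapping groups. Over the list the median was 0.28, 0.59 with the day block and 0.56 with the slide block. All 10 tested proteasome genes had positive differences, 0 passed and 3 were higher at the unadjusted limit, PSMB10 again with PSMB7 (0.64) and PSMC5 (0.49), and their median was 0.46. With the day block the median was 0.36, PSMB7 0.18 and PSMC5 0.13. With the slide block it was -0.044, PSMB7 -0.24 and PSMC5 -0.081. Only 2 of 10 MHC class II genes were tested, with a median of 0.03 (0.21 with the day block, 0.50 with the slide block) that was -0.061 after scaling to the 75th percentile.

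Whole blood mixes many cell types, and in bulk RNA more cells of a type and more RNA per cell cannot be told apart. T cell markers had the highest median among the blood cell lists when neither day nor slide was a block. Of 7 tested T cell genes 0 passed in limma and all 7 had positive differences. At the unadjusted limit 4 were higher (all probes 7.73%), and 3 had no overlap, with HFCSD above (all probes 10.7%). CD8B and CD8A, the chains of the cytotoxic T cell co-receptor, had log2 differences of 0.92 and 0.79, CD3G of the T cell receptor complex 0.87 and the adhesion molecule CD2 0.75. The summed intensity of the 9 T cell genes on the array was 3054, 2962, 2224 and 2467 on control arrays 1 to 4 and 4015, 5528 and 3650 on HFCSD arrays 1 to 3, with CD3G the brightest over the 7 arrays. The sums did not overlap, HFCSD 2 being the highest. Their median difference was 0.75 (all probes 0.04), 0.68 with the day block (all probes 0.23), where CD3G was at 0.25, and 0.24 with the slide block (all probes 0.06), where CD8B was at 0.52, CD2 at 0.30, CD3G at -0.72 and CD8A at -0.078. The part of cell composition in any result above was not tested.

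Neutrophil markers lay on the other side, with a median of -0.73 over 5 tested genes (-0.82 with the day block, -0.085 with the slide block), 0 passing and 1 lower at the unadjusted limit. NCF1, a subunit of the oxidase that makes superoxide, had a log2 difference of -1.24, the gelatinase MMP9 -0.83, and lactoferrin (LTF) 0.72. With the day block LTF was at -0.96, NCF1 at -0.82 and MMP9 at -0.44, and with the slide block LTF was at -1.10, NCF1 at 1.09 and MMP9 at -0.085. Single arrays moved these values: with an array left out NCF1 ran from -1.93 to -0.29, MMP9 from -1.23 to -0.43 and LTF from 0.16 to 1.28. The summed intensity of the 8 neutrophil genes was 18827, 17892, 15649 and 13468 on control arrays and 10645, 19193 and 6218 on HFCSD arrays, with MMP9 the brightest over the 7 arrays. HFCSD 2 was the highest array of all and HFCSD 3 the lowest, so the groups overlap. Of 7 tested monocyte markers 0 passed, with 4 positive and 3 negative differences. The largest was that of CD14 (-1.63, described above), the only one past the unadjusted limit and without overlap. On the positive side lysozyme (LYZ) had a difference of 0.94, which was -0.31 with the day block and 0.041 with the slide block, and the co-stimulatory CD86 0.60, which was 0.17 with the day block, -0.45 with the slide block and 0.20 to 0.84 with an array left out. The monocyte sums were 19408, 10372, 9501 and 8346 on control arrays and 12915, 21157 and 16307 on HFCSD arrays, with LYZ the brightest. Control 1, the array of the shared scan day, was among the high ones, and the groups overlap. The monocyte median was 0.14, -0.087 with the day block and 0.0025 with the slide block.

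Erythroid marker sums ranged widely within both diets. The summed intensity of the 7 genes was 26681, 15040.2, 9507 and 8306 on control arrays and 22226, 8115 and 23488 on HFCSD arrays. Control 1 was the highest and HFCSD 2 the lowest, and the groups overlap. Of 4 tested erythroid genes 0 passed and 1 was higher at the unadjusted limit, BPGM, the red cell enzyme that makes bisphosphoglycerate, at 1.36. The erythroid median was 0.48, -0.12 with the day block and 0.024 with the slide block. Platelet sums were 27999, 29639, 34379 and 27445 on control arrays and 27549, 13597 and 37085 on HFCSD arrays, with PF4 the brightest over the 7 arrays. HFCSD 2 stood out on the low side. The median of 8 tested platelet genes was -0.51 (-0.32 with the day block), 0 passed, and P-selectin (SELP) had a difference of -0.94 and the membrane protein CD9 0.65 (0.21 with the day block). With an array left out SELP ran from -1.21 to -0.41 and CD9 from 0.27 to 0.85. With the slide block these 3 values took the other sign, the median at 0.82, SELP at 0.66 and CD9 at -0.76.

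The smaller blood cell lists had no gene past either limit. Over 4 tested B cell genes the median was 0.38. It was 1.002 with the day block, 0.83 there with dim signals at their bound, and 0.96 with the slide block. The adaptor BLNK entered the fit through the HFCSD arrays alone, being well above background on 2 of 4 control arrays, not on control 1. With the dim signals taken as read its difference was 0.74 (0.47 to 1.01 with an array left out), which is no exact value. Against control 1 alone, within the shared day, BLNK was at least 1.80-fold higher. Over 3 natural killer and cytotoxic genes the median was 0.055 (0.21 with the day block, 0.011 with the slide block, -0.081 after scaling to the 75th percentile), with 2 of the 3 positive. The largest, the activating receptor KLRK1, was at 1.14, at 0.21 with the day block, at -0.86 with the slide block and at 0.61 without HFCSD 2. Over 4 eosinophil and basophil genes it was -0.074 (-0.18 with the day block, 0.47 with the slide block), with 2 positive and 2 negative differences. The largest, the transcription factor GATA2, was at -0.97, at -0.30 with the day block and at 0.81 with the slide block.

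**Figure D2:**
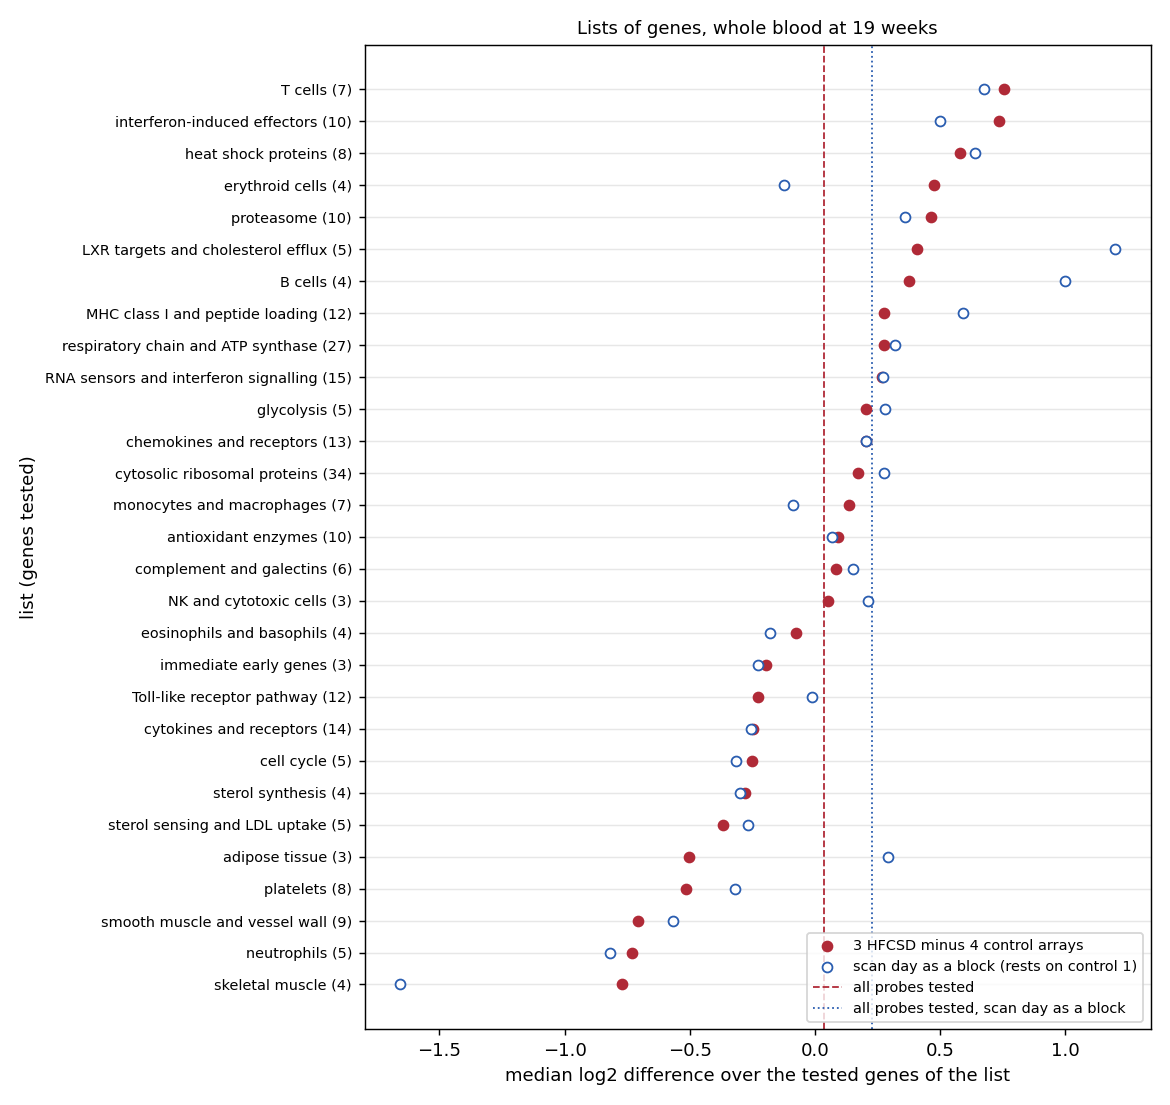
Median log2 difference between HFCSD and control whole blood after 19 weeks for each fixed gene list with at least 3 tested genes, without and with the day block; lines mark the median of all probes, 0.04 and 0.23. T cell and interferon-induced lists lie to the right and neutrophil and muscle lists to the left in both; with the slide block, which is not drawn, the interferon-induced and smooth muscle medians change side.

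Markers of solid tissues had negative medians, apart from fat tissue with either block and smooth muscle with the slide block, and none passed the adjusted test. The 2 tested liver genes had a median of -0.90 (-1.31 with the day block, -1.13 there with dim signals at their bound, -0.86 with the slide block), with RBP4, the vitamin A carrier and the brightest, at -1.03, -0.67 with the day block and 0.63 with the slide block. The summed intensity of the 13 liver genes was 409, 367, 420.2 and 333 on control arrays and 239.8, 251 and 192 on HFCSD arrays. Every HFCSD sum was below every control sum, at low intensities and with most of these genes not well above background. Of 4 skeletal muscle genes 1 was lower at the unadjusted limit, TNNI2, a fast muscle troponin, at -0.997, and the median was -0.77 (-1.66 with the day block, -0.30 with the slide block). Muscle sums were 5686, 3109, 2331 and 2055 on control arrays and 2584, 1811 and 1535 on HFCSD arrays, PYGM being the brightest over the 7 arrays, and the groups overlap. Smooth muscle and vessel wall genes had a median of -0.71 over 9 tested (-0.56 with the day block, 0.77 with the slide block), with 1 lower at the unadjusted limit, the calcification inhibitor MGP at -0.91 (-0.59 with the day block, -0.48 with the slide block, -1.16 to -0.59 with an array left out), and calponin (CNN1), measured on 2 of 3 HFCSD arrays, at -1.64, -0.35 with the day block and 1.81 with the slide block. Their sums were 3961, 3515, 3079 and 3486 on control arrays and 2821, 1634 and 2075 on HFCSD arrays, with DES the brightest over the 7 arrays, and did not overlap. The part of such RNA in the results was not tested. Over 3 fat tissue genes, 1 with a positive and 2 with a negative difference, the median was -0.50. It took the other sign with the day block, at 0.29, and the slide block, at 0.17. Leptin (LEP), the largest of the differences, was at -0.89, -1.16 with the day block and 0.17 with the slide block.

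Heat shock protein genes had positive differences in 7 of 8 tested, and none passed. HSP90AB1, a constitutive chaperone, read 11.91, 10.69, 10.45 and 9.72 on control arrays and 12.48, 12.38 and 12.73 on HFCSD arrays. Control 1 was close to the HFCSD arrays and the other controls well below, and the log2 difference of 1.84 (SE 0.46, adjusted p 0.232) was 0.62 with the day block and -0.26 with the slide block. Of 8 tested genes 3 were higher at the unadjusted limit (all probes 7.73%) and 0 lower (all probes 4.15%). These were HSP90AB1, its inducible relative HSP90AA1 (0.82, 0.51 with the day block, 0.41 with the slide block) and the endoplasmic reticulum chaperone HSPA5. HSPA5 entered the fit through the HFCSD arrays alone, being well above background on 3 of 4 control arrays, not on control 1. With that dim signal taken as read its difference was 1.12, which is no exact value. HSPA5 is counted in the 7 positive differences, the 3 higher genes and the list median, and lends them no support. Against control 1 alone, within the shared day, HSPA5 was at least 1.88-fold higher. The list median was 0.58 (all probes 0.04), 0.64 with the day block and 0.34 with the slide block. Of 3 immediate early genes 0 met either limit, with a median of -0.19 (-0.23 with the day block, 0.018 with the slide block) and JUNB at -0.60 (-0.23 with the day block, -0.17 with the slide block, -0.73 to -0.27 with an array left out). Antioxidant enzymes had a median of 0.092 over 10 tested (0.067 with the day block, 0.14 with the slide block) and 0 passed, with catalase (CAT), abundant in red cells, at 1.06 and the mitochondrial superoxide dismutase SOD2 at -1.15, 0.21 and -0.63 with the slide block. CAT was at 0.53 with the day block and ran from 0.58 to 1.68 with an array left out.

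Lists of housekeeping genes had medians between -0.25 and 0.28. The 34 tested genes matched by name as ribosomal proteins had a median of 0.17 (0.28 with the day block, -0.013 with the slide block). None passed, and 2 higher (all probes 7.73%) and 1 lower (all probes 4.15%) met the unadjusted limit. These were RPL22 at 1.06, RPL36A at 0.72 and RPL28 at -0.67. They were 0.65, 0.40 and -0.29 with the day block and 0.21, -0.030 and -0.083 with the slide block. The name match also takes in RPS6KB1, which is a kinase. The 27 tested respiratory chain and ATP synthase genes had a median of 0.28 (0.32 with the day block, 0.19 with the slide block). None of these genes passed. At the unadjusted limit 2 were higher (all probes 7.73%), among them COX7C, a subunit of cytochrome oxidase, at 0.79. The ATP synthase subunit ATP5MF had a difference of 0.74 that was -0.50 with the day block, -1.22 with the slide block and 0.53 to 1.15 with an array left out. Of 5 glycolysis genes 0 passed, PGK1 was lower at the unadjusted limit at -0.82 (-0.13 with the day block, 0.061 with the slide block), and the median was 0.20 (0.28 with the day block, 0.46 with the slide block). The 5 cell cycle genes had a median of -0.25 (-0.31 with the day block, -0.72 with the slide block) and 0 met either limit.

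Beyond the lists, named genes were taken by size among those that met the unadjusted limit with no overlap between groups. These were 57 genes higher and 41 lower of 1070 named genes with a tested probe. Among all probes 5.81% higher and 2.94% lower met both criteria, so the counts do not set the named genes apart. DHRS4, a short-chain reductase that acts on retinoids, was not well above background on any control array and was measured on all 3 HFCSD arrays, at 6.19, 5.23 and 5.30. It entered the fit through the HFCSD arrays alone, and against the faintest measured signal of each control array it was at least 3.8-fold higher, and 2.92-fold within the shared day, a bound with no place in the order by size. DGKE, a diacylglycerol kinase, had a log2 difference of 1.36 (SE 0.37, adjusted p 0.255), 1.72 with the day block and 2.34 with the slide block. Over the alternatives other than leaving out an array it ran from 0.67 to 2.34. The other high ones were CXCL10, ABCA1, RSAD2, HSP90AB1, MX2, ISG15, TNFSF10 and LGALS9, described above. On the lower side SOX10, a transcription factor of neural crest cells, had a log2 difference of -2.32 (SE 0.82, adjusted p 0.323), with 2 of 3 HFCSD arrays well above background, and -1.35 with the slide block. VNN1, a pantetheinase, had -1.82, CYB561, an electron carrier of secretory granules, -1.62 and SLC22A6, an organic anion transporter of the kidney, -1.60. With the day block they were at -2.25, -2.45 and -2.67, and with the slide block at -1.05, -1.01 and -0.47. TCTEX1D4, a dynein light chain, was not well above background on any HFCSD array, entered through the control arrays alone and was at least 2.69-fold lower in HFCSD blood, but within the shared day, against control 1, at least 1.51-fold. SOX10 and SLC22A6 were both highest on control 1 among the control arrays.

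The HFCD pigs ate the same lard and cholesterol without the added sucrose, which sets the sucrose diet against a feed closer to it. All HFCD arrays of this period share the scan day of the HFCSD arrays, and 3 slides held arrays of both diets. Blood of the HFCSD and HFCD groups was close for the genes called above: ABCA1 had a mean of 12.002 on 3 HFCSD arrays (SD 0.093) and 11.91 on 4 HFCD arrays (SD 0.30), a log2 difference of 0.088 (SE 0.26) and -0.0085 with slide as a block. A_72_P202657 had means of 8.04 (SD 0.19) and 7.85 (SD 0.59), a difference of 0.18 (SE 0.35; 0.23 with slide as a block), and WNT10B 5.18 (SD 0.28) and 4.85 (SD 0.20), a difference of 0.33 (SE 0.27; 0.42 with slide as a block). Limma called 0 of 16277 probes, with 208 higher (1.28%) and 45 lower (0.276%) at an unadjusted p under 0.05. That last count hung on 1 array: without HFCD 1 it was 1475 higher and 2012 lower of 16793, still with 0 called. The median of all probes was 0.09. Lists with higher medians against control, interferon-induced effectors and T cells, had medians of -0.38 and -0.0028 against HFCD, -0.61 and -0.26 with slide as a block, and neutrophils -0.18 and -0.054. Without HFCSD 3 the count was 2. A missed threshold does not show that the diets act alike, and the HFCD arrays varied more, with a median SD of 0.508.

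The same contrast was available after 10 weeks, and the difference between the 2 feeding periods was tested itself, over arrays that the periods do not share. Both periods draw on the same 5 pigs of each diet, and since the titles do not link arrays to pigs the fit took all arrays as independent. ABCA1 had means of 9.504 in 4 control and 11.48 in 4 HFCSD arrays after 10 weeks (SD 0.18 and 0.23), 9.64 and 12.002 after 19 weeks (SD 0.38 and 0.093). Its difference from control was larger by 0.38 on the log2 scale at the later period (adjusted p 0.912), and by 0.88 with scan day as a block. Values with that block rest on control 1 alone as the control of 19 weeks. A_72_P202657 had means of 4.59 and 6.65 after 10 weeks and 5.03 and 8.04 after 19 weeks, a difference larger by 0.94 (adjusted p 0.88; 1.42 with scan day as a block). WNT10B had 6.08 and 5.30 after 10 weeks and 7.29 and 5.18 after 19 weeks, so that the control mean was higher at the later period and the HFCSD mean about level, a shift of -1.34 (adjusted p 0.88; -0.83 with scan day as a block). CXCL10 had means of 6.17 and 7.85, then 6.87 and 10.38. Limma called 0 of 17850 probes, with 716 higher (4.01%) and 279 lower (1.56%) at an unadjusted p under 0.05, and the median of all probes was 0.02. The T cell list had a median of 0.75 in this contrast and the neutrophil list -0.54, 0.80 and -0.74 with scan day as a block. The interferon-induced list had a median of 0.32, and of -0.27 with that block, where the median of all probes was 0.20. With that block the count was 3. Without control 1 of the 19 week arrays the count was 1, and without HFCSD 3 of that period it was 2.

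After 27 weeks the means of the called genes lay on the same sides as after 19 weeks. ABCA1 had means of 10.01 in 4 control and 12.30 in 3 HFCSD arrays after 27 weeks, a shift of -0.067 in its difference from control (adjusted p 0.896; -0.57 with scan day as a block). A_72_P202657 had 5.23 and 7.84, a shift of -0.40 (adjusted p 0.557; -0.87 with the block), and WNT10B 7.48 and 4.80, a shift of -0.56 (adjusted p 0.569; -1.07 with the block). CXCL10 had 7.08 and 8.96. DHRS4 had control means of 5.47, 3.46 and 3.31 after 10, 19 and 27 weeks and HFCSD means of 5.42, 5.58 and 5.62, with 3, 0 and 2 of the 4 control arrays well above background. Limma called 0 of 17971 probes, with 2108 higher (11.7%) and 2805 lower (15.6%) at an unadjusted p under 0.05, and the median of all probes was -0.28. In this contrast the T cell list had a median of -0.62, the neutrophil list 0.53 and the interferon-induced list -0.34. With scan day as a block these medians were -0.26, 1.02 and 0.21, and that of all probes -0.45. SREBF1, SREBF2 and GATA2 had shifts of 4.14, 3.55 and 3.32 (adjusted p 0.0796 each), and 3.39, 2.96 and 2.65 with the block. The count was 210 without HFCSD 3 of the 27 week arrays, 490 with scan day as a block, 1 to 3 without control 1 or HFCSD 3 of the 19 week arrays or control 1, control 4 or HFCSD 2 of the 27 week arrays, and 0 without each of the rest. The arrays of the 3 periods were scanned on different days, so period and scan day cannot be told apart except through the controls. With scan day as a block, control 1 alone stands for the control of 19 weeks. Shifts and counts with that block therefore rest on 1 control array of that period.

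**Figure D3:**
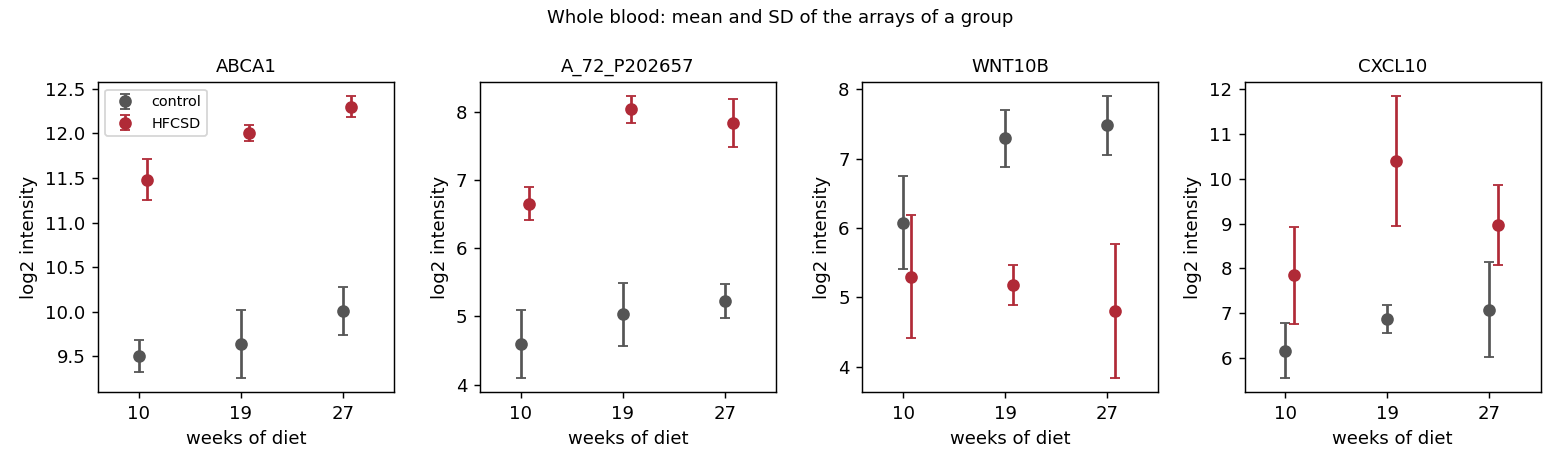
Mean log2 intensity in control and HFCSD whole blood after 10, 19 and 27 weeks, with bars of 1 SD over 3 or 4 arrays. ABCA1 is at 12.002 in HFCSD and 9.64 in control blood after 19 weeks, and WNT10B is highest in control blood after 27 weeks at 7.48.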

How the data were processed

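The 7 arrays came from the 45 per-array files, chosen by title; the members and the gene lists were chosen with earlier results of these data known. Per the file headers, the processed intensity of each spot was made by Agilent Feature Extraction 10.5.1.1 with spatial and multiplicative detrending inside each array, and was not scaled between arrays; mean spot intensity and local background intensity are uncorrected. The authors also deposited a series table of quantile normalized values, a normalized intensity on a linear scale, whose column medians run from 0.0998 to 0.101; its direction (higher means brighter) and arrays were matched to the files for 45 of 45 columns, and the constant behind its scale and centring stays unknown.

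Here outlier spots were dropped, the processed intensity was taken to log2 and brought to common quantiles across the 45 arrays, and replicate spots of a probe were averaged. Of 43603 probes, those well above background on every array of at least 1 group were tested: 17177, of which 15126 passed in both groups, 820 through HFCSD and 1231 through control arrays alone. Limma 3.58.1 in R 4.3.3 fitted the 11 whole blood arrays of 19 weeks (3 diets, 1 estimate of spread), or all 33 whole blood arrays for contrasts between periods, two-sided, adjusted by Benjamini-Hochberg over all probes tested at 0.05. Dim probes were bounded by the higher of their own signal and the lowest signal well above background on each array. The number of arrays limits the precision.

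Names came from RefSeq accessions (1999 probes), the file's gene names (38), symbols or protein names in the probe descriptions (78 and 462) or products read by hand (177), 2754 probes and 1943 genes in all; older symbols were kept, so ATP5J2 and ATP5MF, 1 gene, count apart. For a gene with several probes the tested one with the highest mean stood for it. Named genes were every probe past the threshold, those the study tabulated with a symbol, the 10 largest differences each way at an unadjusted p under 0.05 without overlap, and up to 4 members of each of 32 lists with the largest differences; of the 124 so named, 77 are given, picked with their values known; some genes are not reported here. Alternatives were other scalings and background correction (75th percentile, normexp with offset 50 on mean and local background, the series table, quantile normalization over the fitted arrays), other filters, replicate number, slide and scan day as blocks, the shared scan day alone, other sets of arrays, the methods' t-test and each array left out. The code was tested on simulated data. Files were read in Python 3.11.15 (pandas 2.3.3), and plots were drawn in matplotlib 3.10.9.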

Additional observations from a re-analysis of the deposited data

Results flagged for a closer look

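Among 92 groups of 4 arrays looked at for a sample far from the others, 7 held one; chance gives about 1 in 20 groups. The figure in each sentence is the gap to the nearest array as a share of the group's whole range. DGKE was high on control array 2 after 19 weeks (0.844). SOX10 (0.878) and SLC22A6 (0.869) were both high on control array 1. CCR1 (0.843) and JUNB (0.921) were both high on control array 3. LEP was low on control array 2 (0.912). HFCD array 1 after 19 weeks had a mean correlation with its group of 0.852, low against the others (0.863).

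In white blood cells after 27 weeks, which no comparison here uses, ABCA1 was higher on all HFCSD than on all control arrays by a log2 difference of 2.53, and A_72_P202657 by 2.22.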

How the results depend on the processing

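Limma called 3 probes for HFCSD against control after 19 weeks. The series table, quantile normalization over the fitted arrays and presence on every array gave the same 3. The count was 0 with the 75th percentile (1791 at an unadjusted p under 0.05), with no filter on dim probes (3602), with the weaker presence flag (2835), with the replicate block (1306), with the slide block (396) and with the methods' t-test after Benjamini-Hochberg (2772); normexp gave 1, higher. It was 73 within the shared scan day (7 higher, 66 lower), 3 with scan day as a block (3 higher), 4 with only the 2 groups, 221 with all 33 whole blood arrays (173 higher, 48 lower), 330 with all 45 arrays (252 higher, 78 lower), 886 by the methods' t-test with its fold, and 0 to 3 with an array left out. Against HFCD it was 0 under every alternative and 0 to 2 with an array left out. For 19 minus 10 weeks it was 1 without the filter, 1 with the weaker flag, 1 with the slide block, 3 with scan day as a block and 0 to 2 with an array left out. For 27 minus 19 weeks it was 2 from the series table, 15 without the filter, 32 with the weaker flag, 1 with the slide block, 490 with scan day as a block (265 higher, 225 lower) and 0 to 210 with an array left out. The cause was not tested, apart from what the settings change in arrays and probes.

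No pairing by replicate number is given in the titles. Residual correlations of equal-numbered HFCSD and control arrays were 0.282, 0.0294 and 0.0222, and those of unequal numbers ran from -0.365 to 0.233. The 2 diets were fed to different pigs, so these values cannot tell whether a number stands for the same pig across periods. The replicate block is a check only, and it gave 0 in all 4 comparisons.

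ABCA1 ran from 2.19 to 2.46 with an array left out (2 of 7 past the threshold) and 2.26 to 2.86 otherwise (9 of 15), A_72_P202657 from 2.85 to 3.21 (1 of 7) and 1.62 to 3.67 (6 of 15), WNT10B from -2.28 to -1.96 (1 of 7) and -2.12 to -1.17 (5 of 15). Over 77 genes and 1686 values, 1588 had the main direction and side of the threshold, 16 newly passed, 42 no longer did and 40 reversed, 0 of them with an array left out. With the slide block the log2 difference reversed for RSAD2 (-0.29), HSP90AB1 (-0.26), MX2 (-1.08), TNFSF10 (-0.96), LGALS9 (-0.22), CD14 (0.0025), SREBF1 (0.82), SCARB1 (0.27), SREBF2 (0.64), DDX58 (-1.30), IFIH1 (-0.91), IL6R (1.21), TLR2 (0.54), SELP (0.66), CD9 (-0.76), NCF1 (1.09), LTF (-1.10), CD3G (-0.72), CD8A (-0.078), KLRK1 (-0.86), CD86 (-0.45), GATA2 (0.81), RBP4 (0.63), LEP (0.17), CNN1 (1.81), PGK1 (0.061), RPL36A (-0.030), ATP5MF (-1.22), PSMB7 (-0.24) and PSMC5 (-0.081). With scan day as a block, and equally within the shared scan day, it reversed for PLTP (-0.94), DDX58 (-0.42), LTF (-0.96), LYZ (-0.31) and ATP5MF (-0.50). The cause was not tested.

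With 3 and 4 arrays, 1 control array on the shared scan day and no shared slide, diet, day and slide are hard to part. Under the slide block, with scan day as a block and within the shared day, 1 control array carries its group at 19 weeks. It is assumed to vary like the others. The slide block also rests on HFCD 2 and on differences between HFCD arrays. Signals near background limit the liver, muscle and fat lists most.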
